A study of Mus musculus with 6 samples.

Results

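Subunits of the respiratory chain and of ATP synthase were compared between MC38 tumors injected with Mn-N/C and tumors injected with vehicle. The genes were taken by a rule on the symbol, set with earlier results of these data known: every symbol that starts with mt-, and the Nduf, Sdh, Uqcr, Cyc1, Cox4 to Cox8 and Atp5 symbols. This gave 102 of the 21958 genes in the table, 13 encoded by mitochondrial DNA and 89 encoded in the nucleus. Mn-N/C is a nanozyme in which single manganese atoms sit in a nitrogen-doped carbon frame, and MC38 is a mouse colon carcinoma line. The cells had been injected under the skin of the right flank of male wild-type C57BL/6J mice, so host cells were measured together with tumor cells. In 3 libraries the tumors had received intratumoral Mn-N/C every 3 days at a dose of 70 mg/kg (volume 50 µL), and in 3 vehicle libraries they had received 50 µL of saline on the same schedule. Tumors were collected at 800 to 1000 mm3, and RNA of the whole tissue was sequenced. Whether the libraries of a group stem from different animals is not stated, and p-values therefore cover the spread between libraries only, which may be technical.

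The respiratory chain passes electrons from NADH (complex I) and succinate (complex II) through complexes III and IV to oxygen, and the proton gradient it builds drives ATP synthase (complex V). Complex II is encoded wholly in the nucleus, whereas the other complexes are assembled from subunits of both genomes. The mitochondrial genes are read from long transcripts that cover each strand of the circular genome, and the nuclear genes are transcribed one by one, with factors such as NRF1 and GABP known to bind at many of their promoters.

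Libraries held 16647865, 18961134 and 17901813 counts for Mn-N/C and 18439017, 16385028 and 14988588 counts for vehicle. Vehicle replicates 1 and 3 stood apart. Across the 12800 genes tested, the Spearman correlation of a library's deviation with GC content was 0.40, 0.33 and 0.20 for Mn-N/C and -0.25, 0.16 and -0.53 for vehicle replicates 1, 2 and 3. With gene length it was -0.20, -0.17 and -0.19 for Mn-N/C and 0.17, -0.032 and 0.24 for vehicle. Vehicle replicate 2 had the sign of the Mn-N/C libraries in both. The source is labelled as colon cancer cells, but among 10 colon epithelium markers 2 passed the count filter (Cdh1 and Lgals4), and Cdx1 and Cdx2 had no reads in any library, where 0 reads allow up to 3 counts, or 0.158 to 0.200 CPM. CPM is the count per one-million-count library after TMM scaling of the library sizes.

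Most nuclear-encoded subunits averaged higher in Mn-N/C tumors, by about 0.26 on the log2 scale. The tested subunits encoded by mitochondrial DNA all averaged lower there. Removal of the trend with GC content brought their median log2 fold change to 0.027, but 4 of 10 still averaged lower, among them mt-Nd5 (-1.002) and mt-Nd6 (-0.68). Of the 89 nuclear genes, 85 had reads and 82 had enough to test, and 78 of the 82 had a higher mean in Mn-N/C tumors, against 50.2% of all genes tested. Their median log2 fold change (Mn-N/C over vehicle) was 0.26, with quartiles of 0.18 and 0.33, and the median over all genes tested was 0.00083. At a nominal (unadjusted) p under 0.05 in edgeR's quasi-likelihood test, 52 nuclear subunits were higher in Mn-N/C tumors, where 9.82% of all genes tested were, and 1 was lower, where 11.1% were. The 52 include Cox5b-ps, a pseudogene identical to Cox5b over 99.2% of its bases, whose reads may be split with it, and 51 remain without it. Of the 82, 27 overlap another gene, 5 of them on the same strand, and 41 of the 55 that overlap none were among the 52. No source used here says whether the counting used strand. No member passed an adjusted p of 0.05, where 0% of all genes passed (smallest adjusted p = 0.182, edgeR). DESeq2 called 22 nuclear subunits higher at an adjusted p under 0.05 (background 3.99%) and 0 lower. In a bulk tumor, fewer cells of a type and less RNA per cell cannot be told apart. All 8 macrophage markers were tested and averaged higher in Mn-N/C tumors (median log2 fold change 0.17, 0 at a nominal p under 0.05, none at 0), with a summed level of 1114, 1329 and 1334 CPM in Mn-N/C tumors, against 1240, 1173 and 962 CPM in vehicle tumors. These sums overlapped between the groups, and the part of macrophages in the nuclear values was not tested. The skeletal muscle and adipocyte lists, given below, each ran in 1 direction. All 9 tested muscle markers averaged higher in Mn-N/C tumors (median log2 fold change 0.99), and all 6 adipocyte markers averaged lower (median -1.19). Their part in the nuclear values was not tested. Directions were mixed in the leukocyte, T cell, endothelium and fibroblast lists. In Mn-N/C tumors, 3 of 5 leukocyte, 3 of 5 tested T cell, 2 of 5 endothelium and 2 of 6 fibroblast markers averaged higher.

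**Figure D1:**
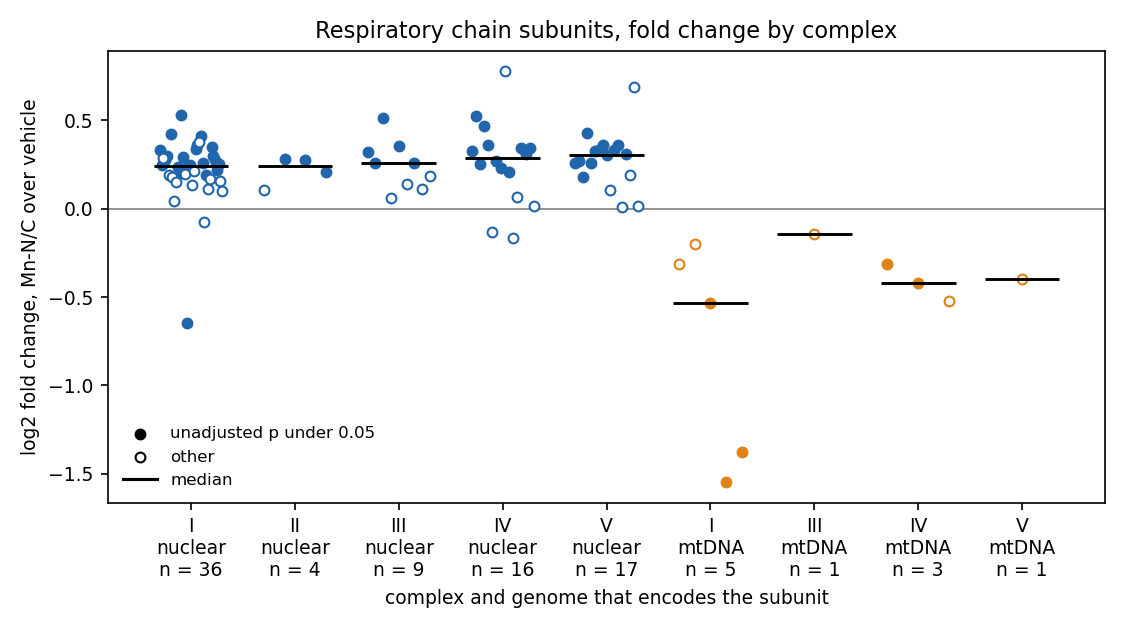
Log2 fold change (Mn-N/C over vehicle, y axis) of each tested subunit, grouped by complex and by coding genome (x axis). Filled points had a nominal p under 0.05 in edgeR, none passed an adjusted p of 0.05, and the black line is the median, which lies between 0.24 and 0.31 for the nuclear sets and below 0 for the mitochondrial sets, of which complexes I, III and V turned above 0 after removal of the GC trend. The mitochondrial sets of complexes III and V hold 1 tested gene each.

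Summed over genes, nuclear subunits took 0.797%, 0.812% and 0.796% of all counts in Mn-N/C tumors, against 0.685%, 0.731% and 0.646% in vehicle tumors. Mitochondrial subunits took 0.767%, 0.783% and 0.858% in Mn-N/C tumors, against 0.988%, 0.839% and 1.27% in vehicle tumors. The nuclear shares did not overlap between the groups, and the mitochondrial shares did, since vehicle replicate 2 lay below Mn-N/C replicate 3. The ratio of nuclear to mitochondrial counts was 1.04, 1.04 and 0.927 in Mn-N/C tumors, against 0.693, 0.871 and 0.509 in vehicle tumors. All 3 Mn-N/C ratios lay above all 3 vehicle ratios, and vehicle replicate 2 came nearest to the Mn-N/C tumors. The mean log2 level of the tested nuclear subunits minus that of the mitochondrial ones, each as a deviation from the mean of the 6 libraries, was 0.36, 0.42 and 0.35 in Mn-N/C tumors and -0.40, 0.15 and -0.89 in vehicle tumors. The difference between the group means was 0.75. A related measure is the mean edgeR log2 fold change of the tested nuclear subunits minus that of the mitochondrial ones. It was 0.35 after removal of the GC trend and 0.29 against vehicle replicate 2 alone, and these values are not on the scale of the 0.75. The fit against vehicle replicate 2 alone also took in Cox8b, with 0 reads in that library and a log2 fold change of 5.56.

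**Figure D2:**
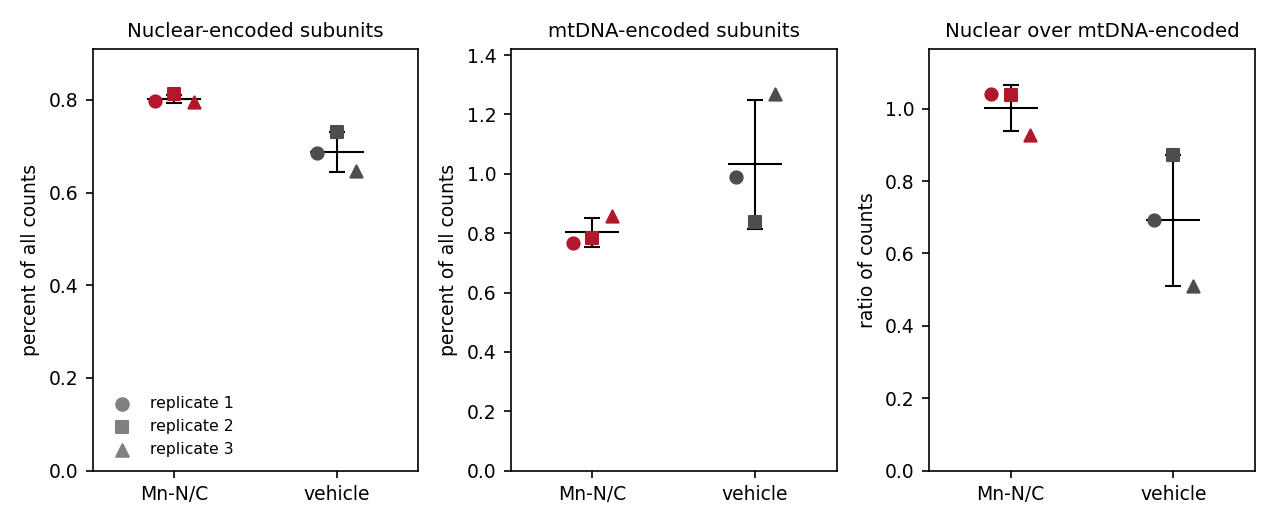
Share of all counts taken by nuclear subunits (left) and by mitochondrial subunits (middle), in percent, and the ratio of the nuclear to the mitochondrial counts (right), with 1 point per library, the mean and the SD (n = 3 per group). The nuclear shares are 0.796% to 0.812% in Mn-N/C tumors and 0.646% to 0.731% in vehicle tumors, and vehicle replicate 3 has the highest mitochondrial share, 1.27%.

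Among the 36 tested nuclear subunits of complex I, which oxidizes NADH, 34 had a higher mean in Mn-N/C tumors, 21 of them at a nominal p under 0.05 in edgeR (background 9.82%), and the median log2 fold change was 0.24. Ndufb8, an accessory subunit of the membrane arm, had 57.4, 53.4 and 54.1 CPM in Mn-N/C tumors, against 43.7, 44.8 and 40.0 CPM in vehicle tumors. The groups did not overlap, and the log2 fold change was 0.36 ± 0.08 (SE, edgeR adjusted p = 0.182), in a gene that overlaps Gm20538 on the same strand. Ndufb7, another accessory subunit, had 55.9, 52.5 and 50.6 CPM in Mn-N/C tumors, against 39.0, 43.4 and 43.3 CPM in vehicle tumors. Ndufa13, known also as GRIM-19, had 69.6, 64.4 and 68.7 CPM in Mn-N/C tumors, against 52.6, 58.1 and 54.0 CPM in vehicle tumors. Both were apart between the groups, with log2 fold changes of 0.34 and 0.30, and Ndufa13 overlaps Yjefn3 on the same strand and Tssk6 on the other.

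Not every complex I gene followed this direction. Ndufs1, the largest core subunit, averaged 64.7 ± 3.0 CPM in Mn-N/C tumors and 68.2 ± 3.5 CPM in vehicle tumors (SD, n = 3 each), with a log2 fold change of -0.077. Ndufb2, an accessory subunit, had 3.00, 2.99 and 3.20 CPM in Mn-N/C tumors, against 3.40, 4.65 and 6.40 CPM in vehicle tumors. It was the 1 nuclear member lower at a nominal p under 0.05 (log2 fold change -0.65 ± 0.28, SE, edgeR adjusted p = 0.237), and its gene overlaps Braf on the other strand and Gm42420 on the same strand, so that its few reads, like those of Ndufb8 and Ndufa13, may not all be its own. Ndufb11b had no reads.

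Complex II, succinate dehydrogenase, also serves the citric acid cycle. All 4 of its genes had a higher mean in Mn-N/C tumors with no overlap between the groups (background 14.2%), 3 of them at a nominal p under 0.05 in edgeR (background 9.82%), and the median log2 fold change was 0.24. Sdhb, the iron-sulfur subunit, had 122, 120 and 118 CPM in Mn-N/C tumors, against 101, 106 and 90.1 CPM in vehicle tumors, a log2 fold change of 0.28 ± 0.08 (SE, edgeR adjusted p = 0.182). Sdhc, a membrane anchor, had 117, 102 and 108 CPM in Mn-N/C tumors, against 90.4, 96.1 and 83.9 CPM in vehicle tumors. Sdhd, the other anchor, had 119, 108 and 115 CPM in Mn-N/C tumors, against 94.7, 108 and 94.6 CPM in vehicle tumors. Replicate 2 of each group nearly met for Sdhd, whose log2 fold change was 0.21. Sdha, the flavoprotein that oxidizes succinate, averaged 214 ± 3.9 CPM in Mn-N/C tumors and 198 ± 7.8 CPM in vehicle tumors (SD, n = 3 each), and its log2 fold change was 0.11 (edgeR adjusted p = 0.361).

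All 9 nuclear genes of complex III, which passes electrons to cytochrome c, had a higher mean in Mn-N/C tumors, with a median of 0.26. Of these, 5 had a nominal p under 0.05 in edgeR (background 9.82%). Uqcrc1, a core subunit of the matrix side, had 152, 160 and 152 CPM in Mn-N/C tumors, against 119, 136 and 108 CPM in vehicle tumors. Cyc1, the cytochrome c1 heme protein, had 130, 123 and 124 CPM in Mn-N/C tumors, against 98.4, 114 and 87.9 CPM in vehicle tumors. In both genes vehicle replicate 2 was the highest vehicle library and still lay below every Mn-N/C library, and the log2 fold changes were 0.36 and 0.32. The small subunit Uqcr11 had 29.9, 29.7 and 25.0 CPM in Mn-N/C tumors, against 20.7, 22.5 and 16.1 CPM in vehicle tumors (log2 fold change 0.51 ± 0.15, SE, edgeR adjusted p = 0.182). Uqcr10, also a small subunit, had a log2 fold change of 0.26. At the other end of the range, Uqcrb averaged 26.9 ± 1.1 CPM in Mn-N/C tumors and 25.8 ± 1.5 CPM in vehicle tumors (SD, n = 3 each).

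For complex IV, cytochrome c oxidase, 16 of 21 nuclear genes were tested and 14 had a higher mean in Mn-N/C tumors, with a median of 0.29. At a nominal p under 0.05 in edgeR, 11 were higher (background 9.82%). Cox6a1, the common isoform of subunit VIa, had 117, 116 and 116 CPM in Mn-N/C tumors, against 89.1, 98.7 and 85.1 CPM in vehicle tumors. Its Mn-N/C libraries were nearly equal, and the log2 fold change was 0.36 ± 0.08 (SE, edgeR adjusted p = 0.182, DESeq2 adjusted p = 0.0099). Cox5a had 24.3, 21.0 and 21.8 CPM in Mn-N/C tumors, against 15.5, 16.3 and 14.9 CPM in vehicle tumors. The groups were apart, with a log2 fold change of 0.52 ± 0.11 (SE, edgeR adjusted p = 0.182). Ndufa4, named for complex I but known as a subunit of complex IV, had 60.9, 63.0 and 56.8 CPM in Mn-N/C tumors, against 46.5, 49.0 and 46.8 CPM in vehicle tumors. Cox8a had 117, 123 and 121 CPM in Mn-N/C tumors, against 96.5, 107 and 88.3 CPM in vehicle tumors. Neither overlapped between the groups, and the log2 fold changes were 0.35 and 0.31. Cox7a2l, which is known for joining complexes III and IV into supercomplexes and is not a core subunit, ran the other way, with 141, 122 and 145 CPM in Mn-N/C tumors, against 148, 161 and 148 CPM in vehicle tumors. Its groups did not overlap, and the log2 fold change was -0.17 ± 0.09 (SE, edgeR adjusted p = 0.296), past no threshold.

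The isoforms of complex IV known from muscle, lung and testis were scarce, and none of those tested had a nominal p under 0.05. Cox7a1, a heart and skeletal muscle form, had 1.59, 1.42 and 2.02 CPM in Mn-N/C tumors, against 1.43, 0.735 and 0.733 CPM in vehicle tumors, and the groups overlapped. Cox6a2, also a muscle form, had 1.29, 3.47 and 1.57 CPM in Mn-N/C tumors, against 1.81, 2.39 and 2.80 CPM in vehicle tumors. Cox8b, likewise from muscle, had 4, 13 and 1 counts in Mn-N/C tumors and 0, 0 and 4 counts in vehicle tumors. Of 10 skeletal muscle markers, 9 were tested, all 9 with a higher mean in Mn-N/C tumors, 0 at a nominal p under 0.05 and none at 0 in both groups. Their summed level was 38.2, 802 and 13.0 CPM in Mn-N/C tumors, against 20.7, 129 and 259 CPM in vehicle tumors. Cox8b and Cox6a2 peaked in the library with the highest sum, Mn-N/C replicate 2, whereas Cox7a1 peaked in the library with the lowest sum, Mn-N/C replicate 3. The part of muscle tissue in these values was not tested. Ndufa4l2, known as a hypoxia-induced paralog of Ndufa4, averaged 3.23 ± 0.48 CPM in Mn-N/C tumors and 3.20 ± 0.61 CPM in vehicle tumors (SD, n = 3 each). Cox4i2, a lung form, had at most 12 counts in a library, and the testis forms Cox7b2 and Cox8c had no reads. The sum of 5 testis markers was at most 0.562 CPM in a library, and Odf1 and Tnp1 had no reads.

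All 17 tested nuclear genes of ATP synthase had a higher mean in Mn-N/C tumors, 12 of them at a nominal p under 0.05 in edgeR (background 9.82%). Their median of 0.31 was the highest of the 5 nuclear sets. Atp5d, the delta subunit of the rotor stalk, had 122, 131 and 124 CPM in Mn-N/C tumors, against 93.2, 103 and 83.8 CPM in vehicle tumors. The gene overlaps Cbarp on the other strand. The groups were well apart, and the log2 fold change was 0.43 ± 0.09 (SE, edgeR adjusted p = 0.182, DESeq2 adjusted p = 0.0064). Atp5g2, 1 of the genes for the membrane ring, had 179, 167 and 175 CPM in Mn-N/C tumors, against 134, 147 and 133 CPM in vehicle tumors. Atp5j2, a small membrane subunit, had 145, 135 and 135 CPM in Mn-N/C tumors, against 107, 115 and 106 CPM in vehicle tumors. Both had log2 fold changes of 0.33 with no overlap between the groups. The alpha subunit Atp5a1 had 1026, 1087 and 1007 CPM in Mn-N/C tumors, against 844, 969 and 792 CPM in vehicle tumors, a log2 fold change of 0.26 ± 0.09 (SE, edgeR adjusted p = 0.187). The catalytic beta subunit Atp5b averaged 1264 ± 3.9 CPM in Mn-N/C tumors and 1047 ± 108 CPM in vehicle tumors (SD, n = 3 each). Atp5pb and Atp5l, both of the membrane sector, had log2 fold changes of 0.018 and 0.0070, and Atp5l is among 3 members with a near-identical copy elsewhere. Atp5o was thinly counted (6 to 40 counts per library) and overlaps an entry of the same symbol that had no reads.

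**Figure D3:**
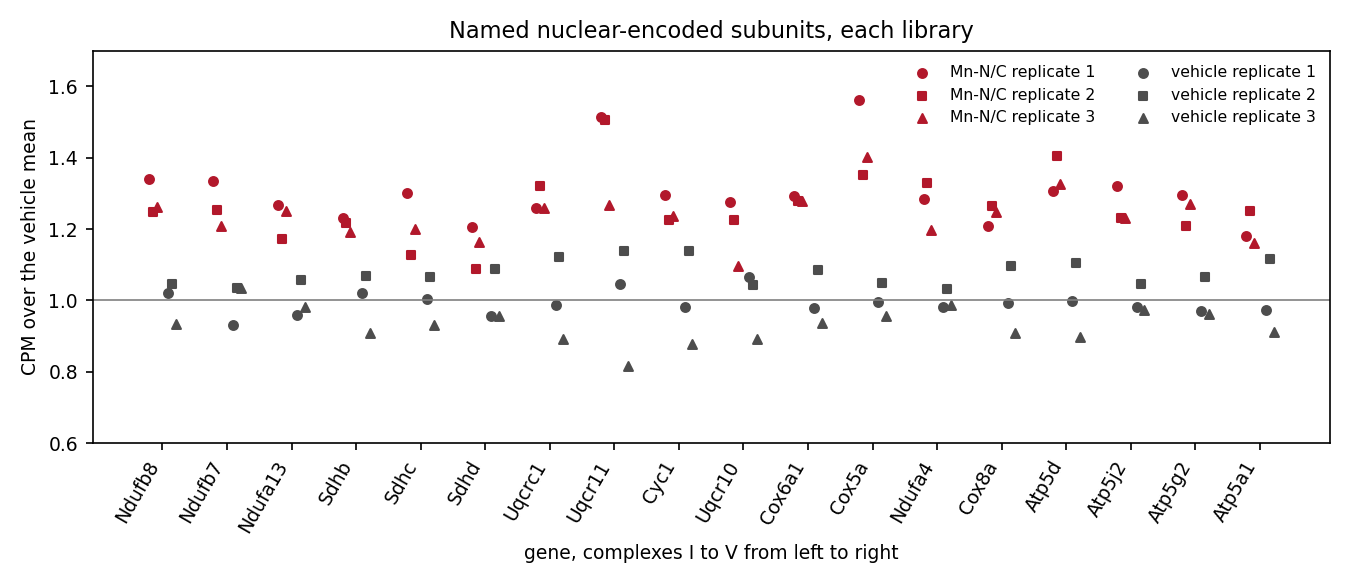
CPM of the nuclear subunits named in the text for their small p or their abundance per length (x axis, complexes I to V), each divided by the mean of its vehicle libraries (y axis), with 1 point per library. All Mn-N/C points lie above 1, the vehicle mean, which the choice by p favors.

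Of the 82 tested nuclear subunits, 57 had all 3 Mn-N/C libraries above all 3 vehicle libraries (background 14.2%), and 2 had them all below (background 12.1%). In each of the 9 pairs of 1 Mn-N/C with 1 vehicle library, 70 to 76 of the 82 were higher in the Mn-N/C library, pairs with vehicle replicate 2 included (70 to 75). The size of the difference depended on vehicle replicate 2. Without it, 15 nuclear subunits passed an adjusted p of 0.05 in edgeR (background 2.5%), and against it alone 13 had a nominal p under 0.05 (background 1.58%) with a median log2 fold change of 0.16. The nuclear subunits are short by the gene length of the table, with a median of 1578 bases against 4522 bases over all genes tested. Shorter genes had higher fold changes across the table (Spearman rho -0.26, over 12800 genes, which are not independent). With the length trend of each library removed, the median was 0.18 (0.042 over all genes), 75 of 82 had a higher mean, and 27 had a nominal p under 0.05 (background 10.7%). With the GC trend removed, the median was 0.24 and 45 had a nominal p under 0.05 (background 10.2%). Within the 82, log2 fold change had a Spearman rho of -0.24 with length, 0.29 with GC content and 0.028 with mean FPKM, given as a description.

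The promoters of the nuclear members were read for motifs of factors known to bind respiratory gene promoters, since most of these genes averaged higher together. Of the 89 genes, 70 had a RefSeq promoter window (GRCm38.p6, 250 bases before to 50 after the start). On either strand, GCATGCGC, the core of the NRF1 motif, was found in 10 genes (14.3%), against 5.90% of genes tested and 3.05% of all genes with a window. CCGGAAG, an ETS motif of the kind GABP binds, was found in 17 genes (24.3%), against 19.7% of genes tested and 9.93% of all genes. ATGGCGGC, the core of a YY1 motif, was found in 7 genes (10%), against 5.59% of genes tested and 2.61% of all genes. These are counts of letters and not of bound sites. Windows of 3 named members that hold GCATGCGC on both strands are shown 5′ to 3′ on the gene's own strand, with matches to GCATGCGC or CCGGAAG (either strand, the overlapping matches of both strands as one run) in capitals. They are Cox6a1 (chr5:115348909-115349208, minus strand), Uqcrc1 (chr9:108936398-108936697, plus strand) and Atp5g2 (chr15:102670998-102671297, minus strand).
Cox6a1: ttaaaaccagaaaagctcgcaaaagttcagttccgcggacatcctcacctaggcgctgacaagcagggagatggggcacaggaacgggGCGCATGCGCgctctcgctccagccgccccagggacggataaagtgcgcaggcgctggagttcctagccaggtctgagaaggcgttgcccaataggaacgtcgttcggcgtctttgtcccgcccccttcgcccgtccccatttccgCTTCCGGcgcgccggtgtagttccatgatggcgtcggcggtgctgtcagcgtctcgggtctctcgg
Uqcrc1: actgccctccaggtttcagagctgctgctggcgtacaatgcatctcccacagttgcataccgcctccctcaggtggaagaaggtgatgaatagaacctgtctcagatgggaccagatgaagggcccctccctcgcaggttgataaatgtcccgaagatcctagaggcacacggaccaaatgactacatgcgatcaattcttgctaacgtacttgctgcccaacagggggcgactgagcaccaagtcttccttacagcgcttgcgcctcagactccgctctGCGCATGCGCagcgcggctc
Atp5g2: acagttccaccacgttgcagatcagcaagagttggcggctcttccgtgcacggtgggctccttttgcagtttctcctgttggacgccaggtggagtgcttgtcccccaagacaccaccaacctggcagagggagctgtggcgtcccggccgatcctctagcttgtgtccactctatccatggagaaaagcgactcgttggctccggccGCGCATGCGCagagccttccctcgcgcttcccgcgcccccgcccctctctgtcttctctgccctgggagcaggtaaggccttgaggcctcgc
The run of GCATGCGC matches lies before the start in Cox6a1 and Atp5g2 and after it in Uqcrc1, and Cox6a1 also holds CCGGAAG on the other strand.

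The 13 mitochondrial genes split into a well-counted and a nearly uncounted group. The cytochrome c oxidase subunit mt-Co1 had 84992 to 119595 counts per library and took 62.9% to 68.2% of all mitochondrial counts, while mt-Co2 of the same enzyme had 215 to 305 counts and mt-Co3 had 96 to 172. The ATP synthase subunits mt-Atp6 and mt-Atp8 had 21 to 40 and 0 to 2 counts, and the complex I subunits mt-Nd3 and mt-Nd4l had 2 to 9 and 0 to 1. Transcripts of nuclear chromosomes match mt-Co2, mt-Atp6, mt-Co3, mt-Nd3 and mt-Nd4l at 99% identity or more over nearly their whole length. The best match of mt-Atp6 is Gm10925 on chromosome 1, 678 bases at 100% identity. Such matches cover 63.6% of mt-Nd4, 31.3% of mt-Co1 and 21.1% of mt-Atp8, and none of mt-Nd1, mt-Nd2, mt-Nd5, mt-Nd6 or mt-Cytb. All 5 genes matched over nearly their whole length had at most 305 counts in any library, and the 5 genes with no such match had at least 412. Of the partly matched genes, mt-Atp8 was low and mt-Nd4 and mt-Co1 were not. How reads with several matches were counted is stated in no source used here, and its part in the low counts was not tested. Neighboring genes also share bases, as at the start of mt-Atp6, shown with the 43 bases it shares with mt-Atp8 in capitals (chrMT:7927-7986, plus strand).
mt-Atp6: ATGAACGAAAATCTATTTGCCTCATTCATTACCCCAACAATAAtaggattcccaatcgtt

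**Figure D4:**
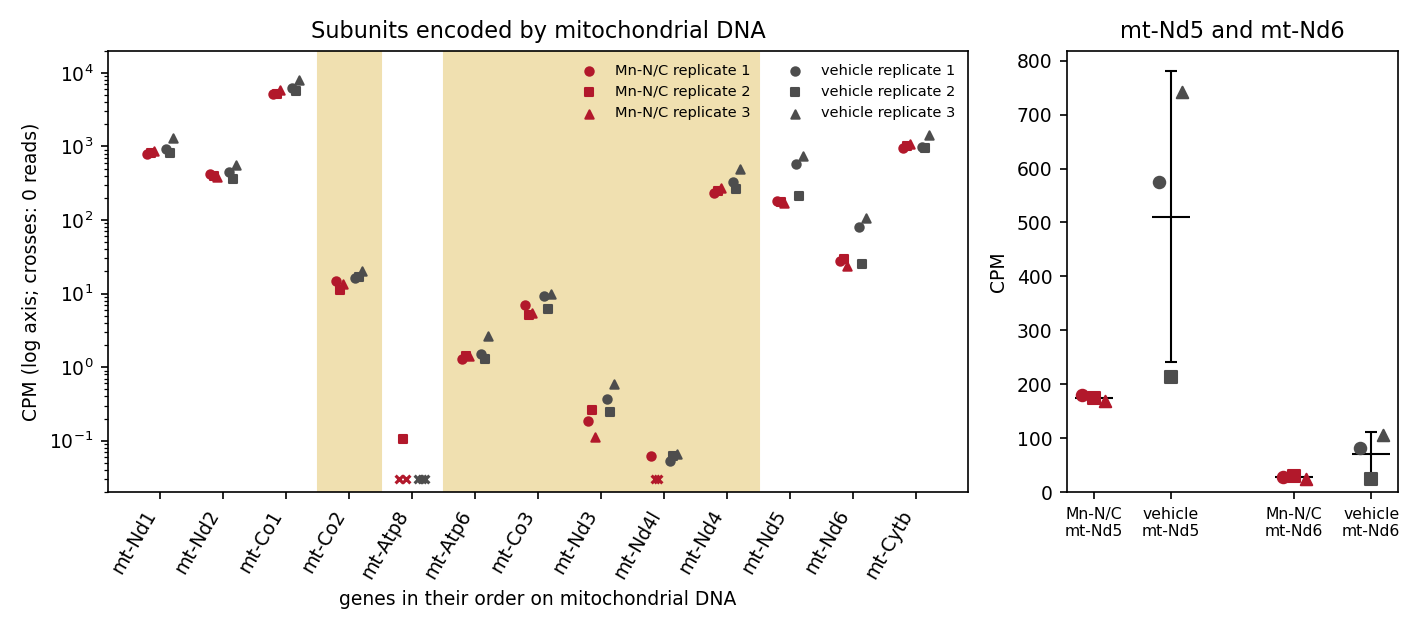
Left, CPM of the 13 mitochondrial genes in their order along the genome (log axis, 1 point per library, crosses for 0 reads), with genes matched over at least 50% of their length by nuclear-chromosome transcripts at 99% identity shaded. Right, CPM of mt-Nd5 and mt-Nd6 on a linear axis with the mean and SD (n = 3 per group), where vehicle replicates 1 and 3 reach 576 and 742 for mt-Nd5 and the other 4 libraries lie between 170 and 214.

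All 10 tested mitochondrial genes had a lower mean in Mn-N/C tumors before, and 4 of 10 after, removal of the GC trend. Their median log2 fold change was -0.41 (-0.21 without vehicle replicate 3), and 5 had a nominal p under 0.05 in edgeR (mt-Nd5, mt-Nd6, mt-Nd4, mt-Co2 and mt-Co1, background 11.1% lower). With the length trend removed, the median was -0.56 and 7 were lower at that p (background 6.66%). With the GC trend removed, 2 were lower (background 5.42%) and 2 higher (background 10.2%). Against vehicle replicate 2 alone, 1 was lower (background 1.84%) and the median was -0.052. None passed an adjusted p of 0.05 in edgeR, and DESeq2 called mt-Nd5 and mt-Nd4 (DESeq2 adjusted p = 0.0364 and adjusted p = 0.0484, background 4.93% lower).

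The complex I subunits mt-Nd5 and mt-Nd6 differed most. mt-Nd5, a proton-pumping subunit at the far end of the membrane arm, had 180, 174 and 170 CPM in Mn-N/C tumors, against 576, 214 and 742 CPM in vehicle tumors. mt-Nd6, the 1 protein encoded on the opposite strand, had 28.0, 29.6 and 24.0 CPM in Mn-N/C tumors, against 81.1, 25.2 and 106 CPM in vehicle tumors. No source used here says whether the counting used strand, so reads of the other strand may be among the mt-Nd6 counts, which was not tested. Vehicle replicates 1 and 3 were high for both genes, vehicle replicate 2 lay next to the Mn-N/C tumors, and only mt-Nd5 was free of overlap. The log2 fold changes were -1.55 ± 0.37 for mt-Nd5 (SE, edgeR adjusted p = 0.182) and -1.38 ± 0.43 for mt-Nd6 (SE, edgeR adjusted p = 0.182). With the GC trend removed they were -1.002 for mt-Nd5 and -0.68 for mt-Nd6, still at a nominal p under 0.05. Without vehicle replicate 2 both passed an adjusted p of 0.05 (edgeR adjusted p = 0.0059 and adjusted p = 0.0284, background 1.97% lower), and against vehicle replicate 2 alone they were -0.31 for mt-Nd5 and 0.098 for mt-Nd6. The genes lie end to end on opposite strands, and their last 30 bases are shown 5′ to 3′ on their own strands (mt-Nd5, chrMT:13536-13565, plus strand, and mt-Nd6, chrMT:13552-13581, minus strand), with the 14 bases they share in capitals.
mt-Nd5: attatcttatactcaaTTAATCTCGAGTAA
mt-Nd6: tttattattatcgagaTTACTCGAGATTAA
The start, end and strand of all 13 mitochondrial genes are the same in the deposited table and in the GRCm38 annotation.

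mt-Nd5 took 2.30%, 2.23% and 1.97% of mitochondrial counts in Mn-N/C tumors, against 5.95%, 2.54% and 5.86% in vehicle tumors. Its counts relative to the neighboring mt-Nd4 were 0.763, 0.709 and 0.627 in Mn-N/C tumors, against 1.74, 0.808 and 1.51 in vehicle tumors. The mt-Nd6 to mt-Nd5 ratio stayed between 0.118 and 0.170 in all 6 libraries, so that both genes were high in the same libraries. The adipocyte markers were also highest in those libraries, with a summed level over 6 genes, all tested and none at 0, of 17.2, 25.0 and 18.2 CPM in Mn-N/C tumors, against 63.6, 17.8 and 37.4 CPM in vehicle tumors, and 3 of the 6 were lower in Mn-N/C tumors at a nominal p under 0.05 (background 11.1%). The GC and length trends given above split the vehicle libraries in the same way. The part of either in the mt-Nd5 and mt-Nd6 values was not tested.

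The other mitochondrial genes differed less. mt-Nd4 had 236, 246 and 271 CPM in Mn-N/C tumors, against 331, 265 and 492 CPM in vehicle tumors (log2 fold change -0.53 ± 0.20, SE, edgeR adjusted p = 0.200, and 0.014 with the GC trend removed). mt-Co1 had 5210, 5114 and 5810 CPM in Mn-N/C tumors, against 6320, 5746 and 7967 CPM in vehicle tumors, a log2 fold change of -0.31 and, with the GC trend removed, 0.040. Vehicle replicate 2 overlapped the Mn-N/C libraries in both genes. The complex III subunit mt-Cytb averaged 1019 ± 69 CPM in Mn-N/C tumors and 1127 ± 272 CPM in vehicle tumors (SD, n = 3 each), a log2 fold change of -0.15 that became 0.24 with the GC trend removed. mt-Nd1 and mt-Nd2, complex I subunits of the first part of the genome, had log2 fold changes of -0.31 and -0.20 that likewise became 0.14 and 0.33. The thinly counted mt-Co3 had a log2 fold change of -0.52 (edgeR adjusted p = 0.244), with overlap between the groups. It stayed lower with the GC trend removed, at -0.12. For the thinly counted mt-Co2, with 14.8, 11.3 and 13.6 CPM in Mn-N/C tumors, against 16.2, 16.8 and 20.2 CPM in vehicle tumors, the groups were apart and the log2 fold change was -0.42 (edgeR adjusted p = 0.197), but -0.028 with the GC trend removed. The mitochondrial genes have a median GC content of 37.4%, against 50.3% for the nuclear subunits and 49.8% for all genes tested, and log2 fold change across the 12800 genes had a Spearman rho of 0.49 with GC content. With the mt-Nd5 and mt-Nd6 values left out, the mean log2 deviation of the other 8 mitochondrial genes was -0.15, -0.22 and -0.12 in Mn-N/C tumors and 0.084, -0.12 and 0.53 in vehicle tumors, so that vehicle replicate 3 stood highest and vehicle replicate 2 reached the Mn-N/C range.

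**Figure D5:**
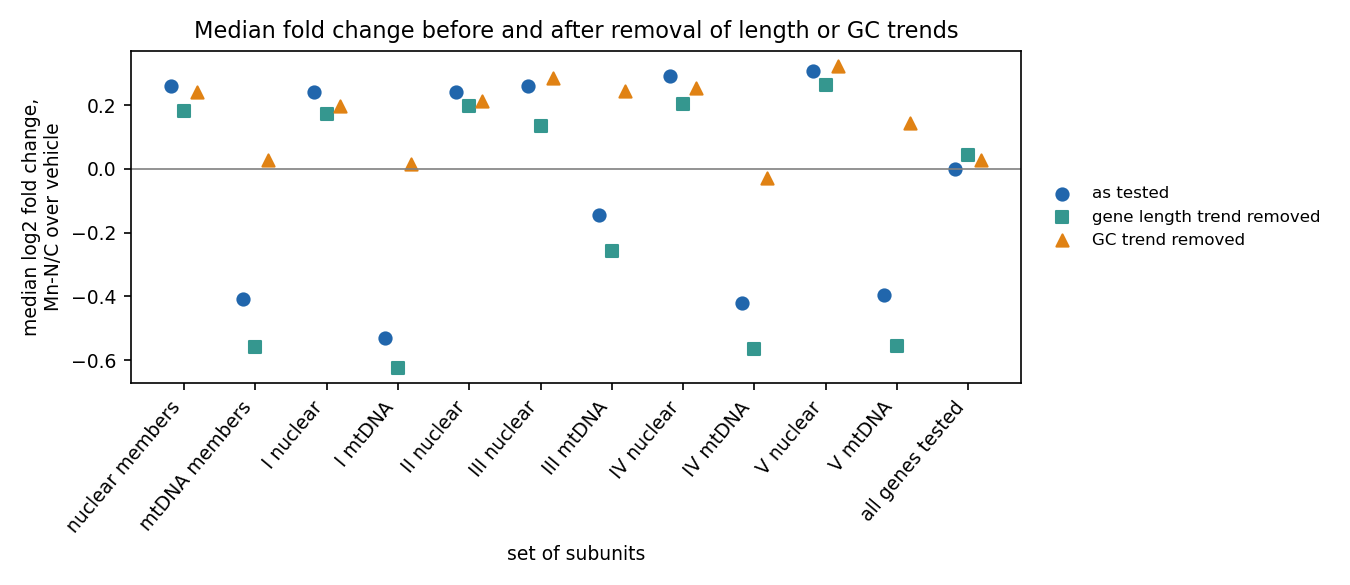
Median log2 fold change (Mn-N/C over vehicle, y axis) of each set of subunits (x axis) as tested, with the gene length trend of each library removed, and with the GC trend removed. The nuclear median is 0.26, 0.18 and 0.24, and the mitochondrial median is -0.41, -0.56 and 0.027, above 0 after removal of the GC trend.

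Other mitochondrial genes were read beside the subunits from lists that were chosen with earlier results known. Of 30 tested genes of the matrix, the outer membrane and import, 28 had a higher mean in Mn-N/C tumors, 15 at a nominal p under 0.05 (background 9.82%) and 0 lower, with a median log2 fold change of 0.19. Among them Mdh2, malate dehydrogenase of the citric acid cycle, had 299, 319 and 284 CPM in Mn-N/C tumors, against 231, 260 and 222 CPM in vehicle tumors (log2 fold change 0.34). The citrate synthase gene Cs had 376, 362 and 351 CPM in Mn-N/C tumors, against 297, 352 and 271 CPM in vehicle tumors, and vehicle replicate 2 just met the Mn-N/C range. Of 45 tested assembly factors, which build the complexes without being part of them, 34 had a higher mean, 5 were higher (background 9.82%) and 1 lower (background 11.1%) at a nominal p under 0.05, shares near or below those of all genes, and the median was 0.055. Uqcc2, an assembly factor of complex III, had 62.8, 58.8 and 59.6 CPM in Mn-N/C tumors, against 46.8, 44.6 and 41.4 CPM in vehicle tumors, a log2 fold change of 0.45 with no overlap. Ndufaf8, which matures a complex I subunit, had a log2 fold change of 0.58, and Suclg2 of the citric acid cycle had 0.23.

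The 16 genes that copy and transcribe mitochondrial DNA were split evenly (8 with a higher mean, 8 with a lower), with a median of -0.028. At a nominal p under 0.05, 0 were higher in Mn-N/C tumors and 3 lower (background 11.1%). Mterf3, known to repress mitochondrial transcription, had 21.3, 21.8 and 20.6 CPM in Mn-N/C tumors, against 24.6, 26.4 and 29.7 CPM in vehicle tumors. The groups did not overlap, and the log2 fold change was -0.34, while Mterf1b, a paralog counted at 1.47 to 4.26 CPM, had -0.98. Tfam, which packs mitochondrial DNA and starts its transcription, averaged 47.9 ± 2.5 CPM in Mn-N/C tumors and 50.0 ± 4.8 CPM in vehicle tumors (SD, n = 3 each). The RNA polymerase Polrmt averaged 31.0 ± 1.4 CPM in Mn-N/C tumors and 28.2 ± 2.8 CPM in vehicle tumors.

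Of 19 tested genes that process or stabilize mitochondrial RNA, 10 averaged higher and 9 lower (median 0.027). At a nominal p under 0.05, 3 were higher (background 9.82%) and 1 lower (background 11.1%). Elac2, which trims mitochondrial tRNAs, had 68.2, 72.2 and 63.4 CPM in Mn-N/C tumors, against 51.1, 60.4 and 48.8 CPM in vehicle tumors. The groups did not overlap, and the log2 fold change was 0.35, with 0.33 for Ptcd1, which takes part in the same processing. The stabilizing protein Lrpprc averaged 117 ± 5.9 CPM in Mn-N/C tumors and 115 ± 9.1 CPM in vehicle tumors.

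Of 9 tested regulators of respiratory genes, 4 averaged higher and 5 lower, and the median was -0.061. At a nominal p under 0.05, 0 were higher (background 9.82%) and 1 was lower (background 11.1%), no more than the share of all genes. That gene, Gabpb2, which encodes a beta subunit of GABP, averaged 184 ± 8.4 CPM in Mn-N/C tumors and 216 ± 22 CPM in vehicle tumors (SD, n = 3 each), with a log2 fold change of -0.23. The DNA-binding subunit Gabpa had 73.6, 74.1 and 77.3 CPM in Mn-N/C tumors, against 88.7, 74.2 and 117 CPM in vehicle tumors, and vehicle replicate 2 lay within the Mn-N/C range. Nrf1 averaged 62.3 ± 6.5 CPM in Mn-N/C tumors and 58.6 ± 2.6 CPM in vehicle tumors, and the coactivator Ppargc1a had at most 0.123 CPM in any library. None of the genes on these 5 lists passed an adjusted p of 0.05 in edgeR.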

How the data were processed

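RNA of whole MC38 tumors was sequenced in 6 libraries, 3 given Mn-N/C and 3 given vehicle, grouped by the labels. The authors deposited raw read counts per gene, without normalization, and FPKM values made from the same counts by gene length and library total. HISAT2 2.0 and mm10 appear in the submitters' processing notes, with no role stated. The counting program and how it treated strand and reads with several matches are not given in any source used here. Coordinates of nuclear genes in the table differ from GRCm38 in most genes and were not converted.

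Counts were filtered with filterByExpr, scaled with TMM and tested with edgeR 4.0.16 (quasi-likelihood, Benjamini-Hochberg over 12800 genes, R 4.3.3), with the 6 libraries and no covariates. Genes were called at an adjusted p under 0.05 and counted at a nominal (unadjusted) p under 0.05 as a description. In edgeR no gene of the table passed the study's threshold of a log fold change over 1.8 with that adjusted p, since none passed the adjusted p. That threshold was not counted with DESeq2, and the paper names no tool for its differential test. The alternatives were DESeq2 1.42.0, RLE scaling, limma 3.58.1 on log2(FPKM + 1) or log2(FPKM + 0.1), no count filter, scaling without mitochondrial genes, loess removal (span 0.5) of each library's trend with gene length or GC content, a replicate block, and leaving out each library. FPKM was filtered at 1 in 3 libraries for limma. DESeq2 gave no adjusted p to some low genes, which stay out of its counts. The edgeR fit was tested on simulated data with fold changes larger than those of most members, so its power for the differences of the members was not measured. Gene length is that of the table, and GC content that of the longest GENCODE transcript.

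The named members are the mitochondrial genes, in each complex the 3 nuclear genes with the smallest p and the one with the highest mean FPKM, the isoforms of other tissues or of hypoxia, and the 2 genes with the smallest p of each other list. A gene that this rule picks is not reported here. Sdha, Ndufs1, Ndufb2, Uqcrb, Cox7a2l, Atp5b, Atp5pb, Atp5l, Atp5o, Cs, Tfam, Polrmt, Lrpprc, Nrf1 and Ppargc1a were named after their values were seen. The members and all gene lists were chosen with earlier results of these data known. Mitochondrial transcripts were compared with GENCODE transcripts by BLAST, and promoters are from RefSeq. Total counts per library limit precision, and limits for 0 reads cover counting error only.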

Additional observations from a re-analysis of the deposited data

How the results depend on the processing

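The nuclear median log2 fold change stayed above 0 in every alternative tried. The count of nuclear subunits higher at a nominal p under 0.05 (52) was 27 with the gene length trend removed, 24 with a replicate block and that trend removed, and 13 against vehicle replicate 2 alone, an alternative chosen after seeing the data in which the lone library is assumed to vary like the others. The nuclear median (0.26) was 0.18, 0.18 and 0.16 there. Of all genes tested, 9.82% were higher at that p as reported and 10.7% with the length trend removed, a share not counted for the block fits. The 1 nuclear subunit lower at a nominal p under 0.05 was 0 with DESeq2, scaling without mitochondrial genes, either trend removed, either block fit and against vehicle replicate 2 alone, and 2 with limma without a filter. At an adjusted p DESeq2 gave 22 nuclear higher and 2 mitochondrial lower, and the block with the length trend removed gave 1 mitochondrial lower.

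Nuclear medians of complexes I, III and IV were 0.17, 0.13 and 0.20 with the length trend removed (0.17, 0.14 and 0.20 with the block added), complex I was 0.20 with the GC trend removed, and complex IV was 0.25 with limma without a filter. Against vehicle replicate 2 alone, complexes I to V were 0.13, 0.12, 0.13, 0.22 and 0.22.

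The mitochondrial direction did not hold in every alternative, though mt-Nd5 and mt-Nd6 stayed lower with the GC trend removed. With the GC trend removed, the median was 0.027, with 2 genes higher and 2 lower, and the medians of complexes I, III, IV and V were 0.014, 0.24, -0.028 and 0.14. Complexes III and V had 1 tested mitochondrial gene each, mt-Cytb and the thinly counted mt-Atp6, whose values stand as the medians here and below wherever the count filter was used. Single genes turned the other way: mt-Nd4 0.014, mt-Nd1 0.14, mt-Nd2 0.33, mt-Cytb 0.24, mt-Co1 0.040 and mt-Atp6 0.14. Against vehicle replicate 2 alone, the median was -0.052, 1 gene was lower, the complexes were -0.014, 0.067, -0.11 and 0.081, and mt-Nd6 was 0.098, mt-Nd2 0.14, mt-Cytb 0.067 and mt-Atp6 0.081. With no count filter, complex I was -1.07 and complex V 1.11, since genes with few reads then entered. The nuclear minus mitochondrial difference in mean edgeR log2 fold change was 0.35 and 0.29 under GC removal and against vehicle replicate 2 alone. It is a measure other than the difference in mean log2 level per library (0.75), so the values are not on one scale. Ndufa4l2 (0.015) was -0.0015 and -0.00052 with limma on log2(FPKM + 1) and log2(FPKM + 0.1), -0.0015 with no filter, -0.10 and -0.11 with the length or GC trend removed, and -0.088 with the block and length removal. The cause of these shifts was not tested.

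Leaving out each library gave 36 to 56 nuclear subunits higher and 0 to 1 lower at a nominal p under 0.05, 0 to 15 higher at an adjusted p, and a nuclear median of 0.22 to 0.32. For the mitochondrial genes, 3 to 8 were lower at that p and 0 to 2 at an adjusted p, with a median of -0.51 to -0.21. The counts of 15 and 2 came without vehicle replicate 2, and the others were 0. The mitochondrial median was -0.21 without vehicle replicate 3, and 3 genes were then lower, as without Mn-N/C replicate 2, against 8 without vehicle replicate 2. At a nominal p under 0.05, 14.8% of all genes tested were higher and 14.3% lower without vehicle replicate 2. With all libraries these shares were 9.82% and 11.1%, and they were not counted for the other omissions. By complex, the nuclear medians ranged from 0.21 to 0.29 (I), 0.19 to 0.31 (II), 0.19 to 0.31 (III), 0.24 to 0.34 (IV) and 0.27 to 0.36 (V), and the mitochondrial ones from -0.70 to -0.25 (I), -0.23 to 0.071 (III), -0.51 to -0.31 (IV) and -0.57 to -0.018 (V). The nuclear minus mitochondrial difference in mean edgeR log2 fold change ranged from 0.55 to 1.02. mt-Cytb ranged from -0.23 to 0.071, Cox6a2 from -0.69 to 0.12 and Ndufa4l2 from -0.11 to 0.15.

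Replicate numbers are shared between the groups, but nothing says that they pair the tumors, and deviations of same-numbered libraries correlated at -0.15, -0.011 and 0.12. With the replicate block, 50 nuclear subunits had a nominal p under 0.05 with a higher mean and 0 with a lower one (median 0.26), 7 mitochondrial genes were lower (median -0.38), and none passed an adjusted p. The share of all genes past the nominal threshold was not counted for this fit, so these counts have no background.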
